A study of Homo sapiens with 16 samples.

Results

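The genes described here are 32 established targets of the transcription factor p53, found by symbol among the 58243 gene rows of a count table from U-251 MG cells, an established human glioblastoma line. Of them 30 passed the filter on low counts, which left 16647 genes in all, and were tested. Poly(A) RNA was sequenced in 16 libraries, 4 in each of 4 groups. One group received the vehicle DMSO, another 0.06 µM simvastatin, another 0.6 µM irinotecan, and the last both agents at these doses, called the combination. The drugs were added 24 h after seeding and stayed on for 48 h. Whether replicate libraries stem from independent cultures is not stated, so the p-values measure the spread between these libraries, which may be technical. All groups are the same line and so share its genotype, and a single line cannot stand for glioblastomas at large.

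p53 is a transcription factor that is stabilised when DNA is damaged. It binds pairs of short half-sites near its targets and raises genes that stop the cell cycle, repair DNA, shift metabolism or start apoptosis, and it raises its own inhibitor MDM2 in a negative feedback loop. U-251 MG is known to carry a missense mutation in the DNA-binding domain of p53 and no functional wild-type copy. Its genotype was not examined here. Irinotecan is converted by carboxylesterases to an active topoisomerase I poison that leaves breaks in replicating DNA. Simvastatin blocks HMG-CoA reductase, the rate-limiting enzyme of cholesterol synthesis. Many of these targets are also known to be raised by p53-independent factors, among them the stress factors ATF4 and CHOP for the death receptor gene TNFRSF10B and the BH3-only genes.

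Library totals ran from 24159673 to 32318888 counts, and mitochondrial genes took 2.37% to 4.58% of them. The TMM factors, which rescale the libraries, were 0.971 to 0.987 in the 8 libraries without irinotecan and 1.01 to 1.03 in the 8 with it. Of 8 glial and glioblastoma markers all were tested, and their summed level per library was 7506 to 7781 CPM (counts scaled to the library size) with DMSO and 7260 to 7385 CPM with simvastatin. It was 5600 to 5751 CPM with irinotecan and 5532 to 5695 CPM with both drugs. Of those markers 7 fell with irinotecan and with the combination (87.5% each, beside 11.7% and 13% of all genes). With simvastatin 3 fell (37.5%, beside 2.11% of all genes). The part of these changes in the results below was not tested. The summed levels per library were 1.06 to 2.57 CPM for 5 immune markers, 0.484 to 1.96 CPM for 4 endothelial markers and 1.49 to 4.26 CPM for 3 epithelial markers. The defining T cell gene CD3E had no count in any library. As these are bulk libraries, fewer cells with a transcript and less of it per cell cannot be told apart.

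Promoter sequences were read for 26 of the 32 genes, as the 250 bases before the gene's start in RefSeq (GRCh38.p14). The consensus half-site of p53, 10 letters that read the same way on both strands, was present without mismatch in 3 of the 26 windows (11.5%), against 5.57% of 35114 promoters. The 3 genes are FDXR, which rose with irinotecan in the results below, AEN, which rose with the combination, and PLK2, which fell. The following 30 bases hold the matches, with the half-site in capitals. The FDXR and AEN windows hold the same 10 letters. The RefSeq starts of these genes lie inside their GENCODE 29 spans, so by GENCODE, the source of the gene positions given below, all 3 windows lie within the gene.
FDXR, chr17:74872986-74873015, minus strand, half-site 11 bases before the start: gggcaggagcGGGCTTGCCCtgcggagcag
AEN, chr15:88621296-88621325, plus strand, half-site 34 bases before the start: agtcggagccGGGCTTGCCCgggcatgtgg
PLK2, chr5:58460199-58460228, minus strand, half-site 132 bases before the start: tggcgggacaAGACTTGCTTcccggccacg
Full sites of 2 half-sites, at most 13 bases apart and with at most 1 mismatch in the weaker of the pair, were in none of the 26 windows and in 0.35% of all promoters. A match describes letters, not binding, and sites farther from the start were not searched. The promoters of GADD45A, PHLDA3, TP53INP1, TNFRSF10B, RRM2B and CMBL were not analysed here.

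Before any drug, the targets spanned a wide range. Per kilobase of exon, the mean DMSO level was highest for PLK2 (108 CPM per kb), a kinase of centriole duplication, then GADD45A (47.8), a growth arrest gene, PMAIP1 (36.9), CCNG1 (27.4) and BTG2 (23.8). CDKN1A, the gene of the cell cycle inhibitor p21, stood at 16.9 CPM per kb and MDM2, the ubiquitin ligase that degrades p53, at 5.86. The lowest of the tested genes were TP53I11 (0.0691 CPM per kb) and EDA2R (0.228). PERP, a membrane protein gene of apoptosis and cell contacts, had 0 counts in the DMSO libraries, which allows up to 0.027 CPM in that group (counting error only), and 5 counts over all 16 libraries. SPATA18, which acts in mitochondrial quality control, had 60 counts over all libraries. Neither passed the filter, and neither was tested.

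**Figure D1:**
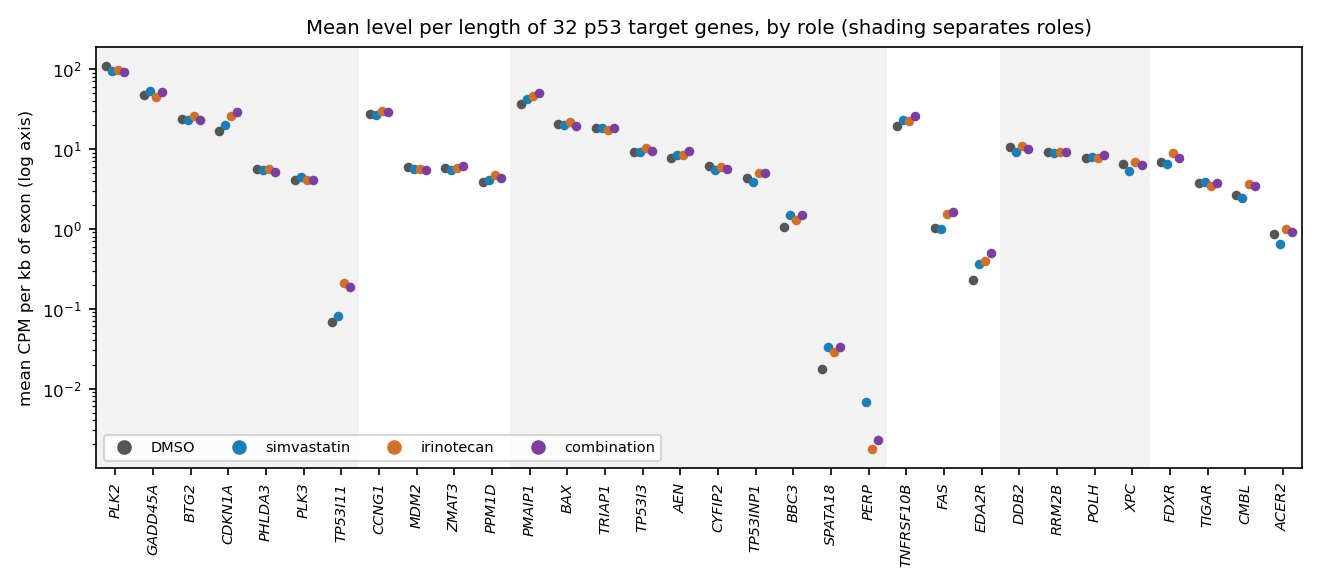
Mean level of all 32 p53 target genes in CPM per kb of exon (log axis), ordered within role, with 1 point per treatment group (4 libraries each). PLK2 sits highest at 108 CPM per kb with DMSO, while TP53I11, EDA2R, SPATA18 and PERP lie lowest. PERP has no DMSO point because its count there was 0.

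Irinotecan against DMSO asked how these genes respond to a DNA-damaging drug in a line with mutant p53. Of the 30 genes tested, 10 rose and 1 fell (edgeR quasi-likelihood test, Benjamini-Hochberg adjusted over all genes). All 3 death receptor genes rose, with CDKN1A, TP53I11, PPM1D, PMAIP1, TP53INP1, FDXR and CMBL, while MDM2 and the 4 genes of DNA repair and nucleotide supply were not called. Over all genes tested 12.4% were called higher and 11.7% lower, so the share of targets called higher, 33.3%, lay above the background. The median log2 fold change of the 30 was 0.10, and 1 exceeded a 2-fold rise. Scaling by library sizes alone, without TMM factors, gave 3789 genes higher and 1079 lower in place of 2064 and 1951. It called 17 of the 30 targets higher, against 22.8% of all genes.

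CDKN1A (chromosome 6, 36676460 to 36687339, GRCh38, as for all gene positions here) was the most firmly changed target. Its levels were 51.5, 49.985, 52.9 and 51.7 CPM in DMSO replicates 1 to 4, 58.6, 59.7, 60.8 and 63.9 CPM with simvastatin, 78.8, 77.8, 77.6 and 76.3 CPM with irinotecan, and 95.4, 84.1, 88.0 and 87.9 CPM with the combination. No group overlapped another, and the order was DMSO, simvastatin, irinotecan, combination. The log2 fold change with irinotecan was 0.59 ± 0.04 (SE, adjusted p = 6.19e-12), that is 1.51-fold, and it held in all 25 alternatives run.

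TP53I11, a p53-induced gene linked to reduced growth and migration (chromosome 11, 44885903 to 44951306), had the largest fold change of the targets and the lowest level of those tested. It was at 0.648, 0.373, 0.395 and 0.613 CPM with DMSO and at 0.871, 0.495, 0.585 and 0.403 CPM with simvastatin. With irinotecan it was at 1.74, 1.36, 1.67 and 1.31 CPM, and with the combination at 1.75, 0.985, 1.26 and 1.51 CPM. Every library with irinotecan lay above every library without it. The totals behind these levels were 56 counts over the DMSO libraries and 174 over the irinotecan libraries, and the log2 fold change was 1.55 ± 0.26 (adjusted p = 3.84e-05).

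Of the other 5 cell cycle and growth brakes 1 fell and 4 were not called. PLK2 was at 526, 508, 504 and 531 CPM with DMSO and at 462, 465, 462 and 457 CPM with irinotecan, with no overlap. It fell by 0.16 on the log2 scale (SE 0.03, adjusted p = 0.000239). BTG2, an antiproliferative gene, was 0.10 ± 0.05 (adjusted p = 0.111), and GADD45A was -0.08 ± 0.05 (adjusted p = 0.301). PLK3, a stress kinase, was 0.02 and PHLDA3, an inhibitor of AKT, -0.003, and neither was called.

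Among the feedback genes, MDM2 (chromosome 12, 68808176 to 68850686) showed no rise. Its levels were 75.7, 79.1, 80.5 and 76.1 CPM with DMSO, 71.5, 75.1, 81.0 and 72.1 CPM with simvastatin, 72.8, 69.2, 76.3 and 76.1 CPM with irinotecan, and 73.6, 73.5, 75.4 and 70.8 CPM with the combination. The log2 fold change with irinotecan was -0.08, with a 95% interval of -0.17 to 0.01, so a rise above 0.01 on the log2 scale lay outside the interval. With library sizes alone the value was -0.01. All combination libraries lay below all DMSO libraries in MDM2, but it was not called in that comparison (-0.09, adjusted p = 0.155). The span of MDM2 overlaps that of a gene named CPM on the opposite strand, at 6.56% of its level. That gene was not called with irinotecan (0.30, adjusted p = 0.0691) and rose with the combination against DMSO (0.36, adjusted p = 0.0241). PPM1D, the phosphatase that shuts off p53 and its kinases, rose from 19.4 ± 1.0 to 24.0 ± 1.4 CPM (SD, n = 4), with a log2 fold change of 0.30 ± 0.06 (adjusted p = 0.000562). CCNG1, a cyclin that recruits a phosphatase to MDM2, was 0.10 ± 0.04 (adjusted p = 0.0661), and ZMAT3, an RNA-binding protein, was -0.02 ± 0.06.

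All 3 death receptor genes among the targets rose with irinotecan, beside 12.4% of all genes called higher. Of the further list below, TNFRSF10A had means of 7.77 CPM with DMSO and 8.55 CPM with irinotecan. TNFRSF10C had means of 0.883 and 0.964 CPM. FAS, which binds the FAS ligand (chromosome 10, 88990582 to 89015785), was at 3.89, 5.96, 3.79 and 3.87 CPM with DMSO, 3.37, 3.59, 5.68 and 4.27 CPM with simvastatin, 6.69, 7.28, 6.46 and 5.74 CPM with irinotecan, and 6.58, 7.29, 6.60 and 6.88 CPM with the combination. DMSO replicate 2 overlapped the irinotecan libraries, and the other DMSO libraries did not. The log2 fold change was 0.59 ± 0.14 (adjusted p = 0.00229), and FAS overlaps ACTA2 on the opposite strand, whose level was 15.6% of that of FAS and which also rose with irinotecan (1.09, adjusted p = 0.00163). TNFRSF10B, the TRAIL receptor DR5 (chromosome 8, 23020133 to 23069179), was at 97.5, 104, 99.4 and 97.6 CPM with DMSO, 113, 118, 124 and 119 CPM with simvastatin, 114, 117, 119 and 113 CPM with irinotecan, and 134, 130, 131 and 131 CPM with the combination.

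The 2 single-drug groups overlapped in TNFRSF10B and lay above DMSO, and the combination lay above both without overlap. With irinotecan its log2 fold change was 0.22 ± 0.04 (adjusted p = 4.18e-05). RHOBTB2 overlaps it on the opposite strand at 25.4% of its level and rose as well (0.15, adjusted p = 0.0332). EDA2R, a receptor for ectodysplasin A2 (chromosome X, 66595637 to 66639298), was at 0.901, 0.497, 1.18 and 0.678 CPM with DMSO, 1.70, 0.867, 1.51 and 1.17 CPM with simvastatin, 1.27, 1.48, 1.42 and 1.47 CPM with irinotecan, and 1.98, 1.69, 1.77 and 1.75 CPM with the combination. Its change with irinotecan was 0.79 ± 0.24 (adjusted p = 0.0132), without overlap with DMSO, but the call was lost without DMSO replicate 2 (0.63, adjusted p = 0.0577) or DMSO replicate 4 (0.70, adjusted p = 0.0518).

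Of 8 tested genes of mitochondrial apoptosis and its control, 2 rose with irinotecan (25%, beside 12.4% of all genes). PMAIP1, which encodes the BH3-only protein NOXA (chromosome 18, 59899948 to 59904306), was at 78.3, 81.8, 81.7 and 88.2 CPM with DMSO, 91.9, 93.4, 99.3 and 94.4 CPM with simvastatin, 97.7, 100.6, 101.6 and 105.0 CPM with irinotecan, and 109, 110.1, 118 and 115 CPM with the combination. Both single drugs lay above DMSO without overlap, and the combination lay above all other groups. The log2 fold change with irinotecan was 0.29 ± 0.04 (adjusted p = 2.36e-06). TP53INP1, which promotes autophagy and cell death, had a change of 0.21 ± 0.07 (adjusted p = 0.0335). That call was lost on leaving out any of DMSO replicates 1 and 4 or irinotecan replicates 2, 3 and 4 (0.17 to 0.22, adjusted p = 0.0506 to 0.118). NDUFAF6 overlaps TP53INP1 on the opposite strand at 49.2% of its level and was not called (0.09, adjusted p = 0.407).

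BBC3, the gene of the BH3-only protein PUMA (chromosome 19, 47220822 to 47232766), was at 3.85, 3.98, 3.16 and 2.42 CPM with DMSO, 4.66, 5.12, 4.51 and 4.52 CPM with simvastatin, 4.52, 4.65, 4.17 and 3.23 CPM with irinotecan, and 5.97, 4.02, 4.29 and 4.44 CPM with the combination. Irinotecan overlapped DMSO, and the change of 0.32 ± 0.15 was not called (adjusted p = 0.124). BAX, the pore-forming effector of mitochondrial apoptosis, was 0.10 with an interval of -0.03 to 0.23. AEN, an apoptosis-enhancing nuclease, was 0.13 ± 0.05 and just missed the threshold (adjusted p = 0.0512). TP53I3, an oxidoreductase, was 0.13 ± 0.06, TRIAP1, an inhibitor of apoptosis, -0.06 ± 0.06, and CYFIP2 -0.05 ± 0.05, and none of these 3 was called.

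None of the 4 DNA repair and nucleotide supply genes was called with irinotecan. XPC and DDB2, which recognise bulky lesions in nucleotide excision repair, were 0.10 ± 0.05 and 0.04 ± 0.05. POLH, a translesion polymerase, was -0.002 ± 0.06 and RRM2B, the p53-induced subunit of ribonucleotide reductase, -0.01 ± 0.05. The intervals of these 4 genes ended at 0.20 or lower on the log2 scale. XPC overlaps LSM3 and POLH overlaps GTPBP2 on the opposite strand, at 254% and 262% of their own levels.

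In metabolism 2 of 4 genes rose (50%, beside 12.4% of all genes). FDXR, the mitochondrial ferredoxin reductase (chromosome 17, 74862497 to 74873031), was at 24.8, 23.8, 26.0 and 23.4 CPM with DMSO, 24.8, 22.4, 21.5 and 23.4 CPM with simvastatin, 31.3, 32.1, 31.6 and 31.5 CPM with irinotecan, and 28.0, 28.6, 24.9 and 30.6 CPM with the combination. All irinotecan libraries lay above all other libraries, and the log2 fold change was 0.37 ± 0.06 (adjusted p = 1.61e-05). CMBL, a hydrolase of the liver and gut that activates ester prodrugs (chromosome 5, 10275875 to 10308026), was at 9.65, 8.41, 9.24 and 7.78 CPM with DMSO, 7.95, 8.62, 7.57 and 8.51 CPM with simvastatin, 12.2, 11.9, 13.1 and 11.2 CPM with irinotecan, and 11.1, 11.8, 10.6 and 11.6 CPM with the combination. Every library with irinotecan was above every library without it, and the change was 0.47 ± 0.08 (adjusted p = 4.86e-05). TIGAR, a regulator of glycolysis, was -0.10 ± 0.08 and ACER2, a ceramidase, 0.20 ± 0.22, neither called.

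**Figure D2:**
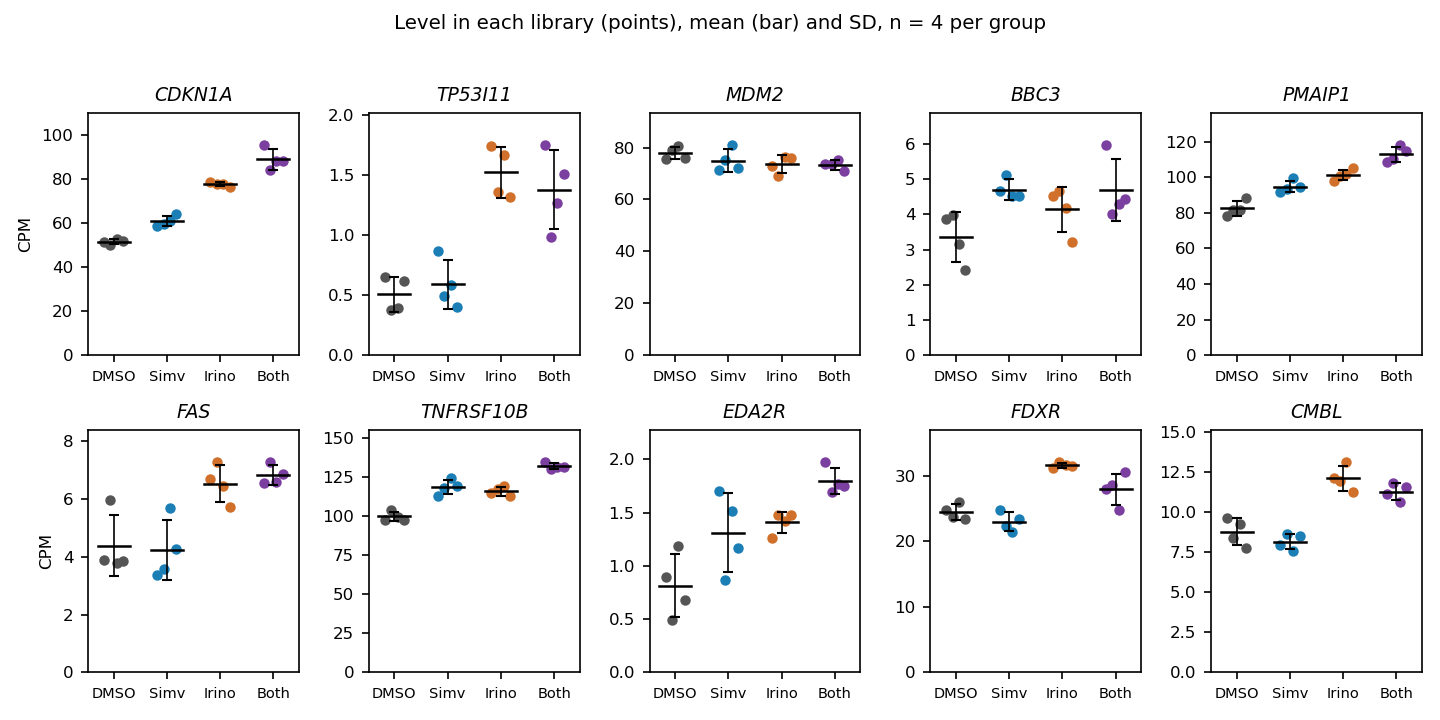
Level in CPM (linear axes from 0) of 10 targets in each library by group, with the mean and SD of 4 libraries. CDKN1A, PMAIP1 and TNFRSF10B step up in both single-drug groups and again in the combination, TP53I11 and CMBL separate the groups with and without irinotecan, and MDM2 stays between 69.2 and 81.0 CPM throughout.

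The genes that rose with irinotecan were spread over levels. The 10 had mean DMSO levels of 0.507 to 99.6 CPM (median 21.98), and the other 20 tested had 1.90 to 517 CPM (median 48.6).

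The statin given alone was set against DMSO next. Of the 30 targets 4 rose and 4 fell, beside 3.89% of all genes called higher and 2.11% lower, and the median log2 fold change was -0.03. The higher ones were CDKN1A (0.24 ± 0.04, adjusted p = 0.000409), TNFRSF10B (0.25 ± 0.04, adjusted p = 2.51e-05), PMAIP1 (0.20 ± 0.04, adjusted p = 0.00216) and BBC3 (0.50 ± 0.15, adjusted p = 0.043). All 4 separated from DMSO without overlap. Separations given here and elsewhere come from the same libraries as the calls and are no separate evidence. Their share over all genes was not counted. The BBC3 call was lost on leaving out DMSO replicate 3 or 4, simvastatin replicate 1, 2 or 4, irinotecan replicate 3 or combination replicate 4 (0.36 to 0.51, adjusted p = 0.053 to 0.208).

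The lower ones were 2 repair genes, PLK2 and CYFIP2. XPC was at 30.9, 30.1, 30.5 and 31.2 CPM with DMSO and 24.9, 25.0, 27.3 and 24.8 CPM with simvastatin, a change of -0.27 ± 0.05 (adjusted p = 0.000885). The overlapping LSM3 was 0.04 in that comparison (adjusted p = 0.743). DDB2 was at 54.5, 49.9, 48.6 and 51.5 CPM with DMSO and 44.2, 45.3, 45.1 and 45.0 CPM with simvastatin, a change of -0.19 ± 0.05 (adjusted p = 0.0127). Neither repair gene overlapped between the groups, and the DDB2 call was lost without DMSO replicate 1 (-0.16, adjusted p = 0.0686).

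PLK2 fell by 0.20 on the log2 scale with simvastatin (SE 0.03, adjusted p = 9.95e-05). CYFIP2, a partner of the WAVE actin complex, had a change of -0.16 ± 0.05 (adjusted p = 0.0354), and its groups overlapped. That call was lost without DMSO replicate 2 or 3 or simvastatin replicate 1, 2 or 4 (-0.16 to -0.13, adjusted p = 0.0622 to 0.168). Its gene span overlaps that of ADAM19 on the opposite strand, which had 1269% of its level. Whether their exons overlap was not examined, so how far the reads of CYFIP2 are affected is not known. EDA2R was 0.70 ± 0.24 and was not called (adjusted p = 0.088). MDM2 was -0.05, with an interval of -0.14 to 0.04.

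The combination against DMSO, with the same DMSO libraries as both single-drug comparisons, asked for the response to both drugs. Of the 30 targets 12 rose and 1 fell, beside 15.1% of all genes called higher and 13% lower. The share of targets called higher was 40%, and the median was 0.08. With library sizes alone 3868 genes were higher and 1401 lower in place of 2518 and 2159, and 14 targets were higher. The 12 were the 10 that rose with irinotecan, BBC3 and AEN, and 2 of them more than doubled, TP53I11 (1.41 ± 0.27, adjusted p = 0.000164) and EDA2R (1.14 ± 0.23, adjusted p = 0.000324).

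CDKN1A reached 0.79 ± 0.04 (adjusted p = 1.06e-14), FAS 0.65 ± 0.14 (adjusted p = 0.000862) and PMAIP1 0.45 ± 0.04 (adjusted p = 8.61e-10). TNFRSF10B was 0.40 ± 0.04, CMBL 0.36 ± 0.08 and AEN 0.29 ± 0.05 (adjusted p = 9.7e-10, 0.00111 and 3.71e-05). AEN was at 49.5, 44.8, 44.2 and 45.7 CPM with DMSO and 58.4, 55.5, 55.1 and 56.2 CPM with the combination, with no overlap. PLK2 fell by 0.26 on the log2 scale (SE 0.03, adjusted p = 2.48e-07).

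The remaining 4 calls of the combination were each lost on leaving out 1 library. BBC3 was 0.49 ± 0.15 (adjusted p = 0.0135), and 0.35 without DMSO replicate 4 (adjusted p = 0.0872) or without combination replicate 1 (adjusted p = 0.1). FDXR was 0.19 ± 0.06 (adjusted p = 0.0162), and was not called without DMSO replicate 4 (0.17, adjusted p = 0.0636) or combination replicate 4 (0.15, adjusted p = 0.0892). PPM1D was 0.18 ± 0.06 (adjusted p = 0.0348), and lost its call without DMSO replicate 1, 2 or 3 or combination replicate 2 or 3 (0.14 to 0.17, adjusted p = 0.063 to 0.127). TP53INP1 was 0.20 ± 0.07 (adjusted p = 0.037), and lost its call without DMSO replicate 1 or 4 or combination replicate 3 or 4 (0.13 to 0.21, adjusted p = 0.0649 to 0.216).

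**Figure D3:**
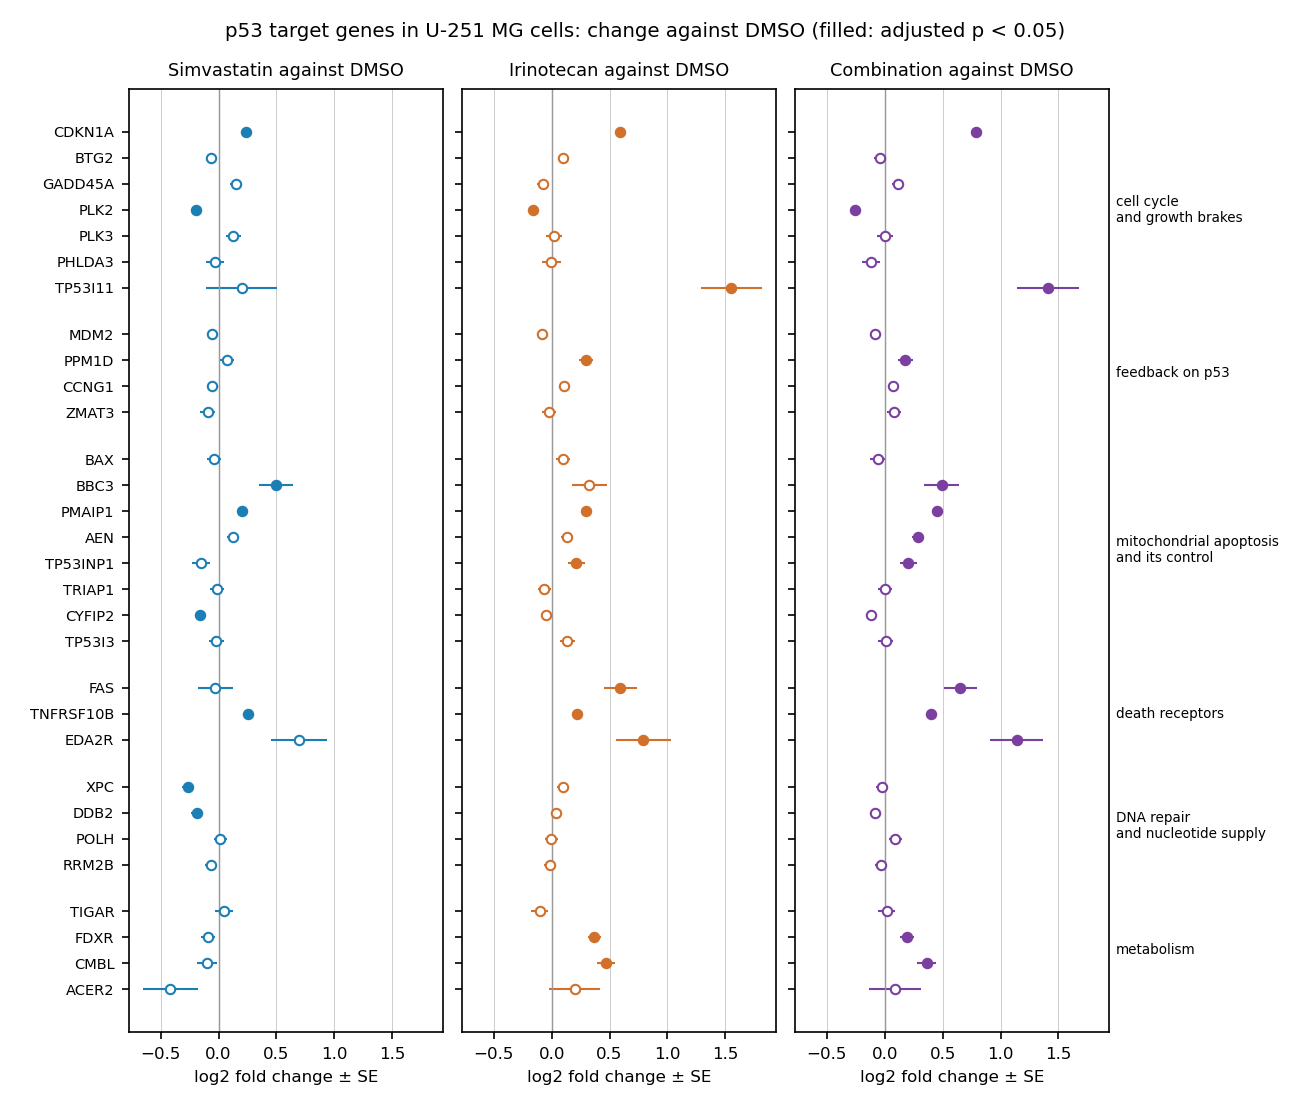
Log2 fold change against DMSO with its standard error for the 30 tested targets, grouped by role, in 3 comparisons that share the DMSO libraries. Filled points passed an adjusted p of 0.05. With irinotecan and with the combination all 3 death receptor genes are filled and to the right of 0, whereas the 4 repair and nucleotide genes are open and near 0.

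To see what simvastatin adds, the combination was set against irinotecan. Of the 30 targets 4 were higher and 0 lower, beside 4.45% and 1.5% of all genes. TNFRSF10B (0.18 ± 0.04, adjusted p = 0.0015), CDKN1A (0.19 ± 0.04, adjusted p = 0.00267) and PMAIP1 (0.16 ± 0.04, adjusted p = 0.0178) were higher without overlap of the groups. The PMAIP1 call was lost without irinotecan replicate 1 or combination replicate 3 (0.14 in each, adjusted p = 0.0697 and 0.0738). GADD45A was at 102, 92.2, 91.7 and 88.8 CPM with irinotecan and 106, 108, 100.4 and 114 CPM with the combination, with overlap, a change of 0.19 ± 0.05 (adjusted p = 0.021). That call was lost without irinotecan replicate 2, 3 or 4 or combination replicate 2 or 4 (0.16 to 0.19, adjusted p = 0.0589 to 0.09).

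No target was called lower in this comparison, and 6 of the 30 had a negative value at an unadjusted p under 0.05. DESeq2 called 2 lower, BTG2 and PLK2, and with no filter or with library sizes alone 3 were lower. With the replicate number as a block, on the numbered libraries, BTG2, PLK2, BAX, DDB2 and FDXR were called lower. BTG2 was -0.15 ± 0.05 (adjusted p = 0.0575), PLK2 -0.09 ± 0.03 (adjusted p = 0.0829) and FDXR -0.18 ± 0.06 (adjusted p = 0.072) in the main test. With library sizes alone 594 genes were higher and 351 lower in place of 740 and 249.

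To see what irinotecan adds, the combination was set against simvastatin. Of the 30 targets 12 were higher and 0 lower, beside 13.9% and 11.7% of all genes, with a median of 0.11. With library sizes alone 3525 genes were higher and 1278 lower in place of 2306 and 1953, and 13 targets were higher. TP53I11 (1.21 ± 0.27), FAS (0.68 ± 0.14), CDKN1A (0.55 ± 0.04), CMBL (0.47 ± 0.08), TP53INP1 (0.36 ± 0.07), FDXR (0.28 ± 0.06), PMAIP1 (0.25 ± 0.04), XPC (0.25 ± 0.05) and TNFRSF10B (0.15 ± 0.04) kept their calls whichever library was left out. AEN (0.16), ZMAT3 (0.17) and CCNG1 (0.13) did not. AEN lost its call without simvastatin replicate 3 or combination replicate 1 (adjusted p = 0.0531 and 0.0558), and CCNG1 without combination replicate 1 or 4 (adjusted p = 0.0505 to 0.101). ZMAT3 lost its call without DMSO replicate 4, simvastatin replicate 1, 2 or 4 or combination replicate 3 or 4 (adjusted p = 0.0557 to 0.172).

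Lower calls in that comparison were 0 of 30 targets in edgeR and 0 in DESeq2, and 0 targets had a negative value at an unadjusted p under 0.05. EDA2R was 0.44, with an interval of 0.00 to 0.88 (adjusted p = 0.137). BBC3 was -0.004, with an interval of -0.30 to 0.29.

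The irinotecan effect was measured again on libraries that the first comparison did not use, in the presence of simvastatin. Higher calls recurred for 8 targets, CDKN1A, TP53I11, PMAIP1, TP53INP1, FAS, TNFRSF10B, FDXR and CMBL. They were 80% of the 10 called without simvastatin and 66.7% of the 12 called with it. Over all genes 9.09% were called higher in both comparisons, 73.4% of the first set and 65.7% of the second, so the targets recurred about as often as other called genes. Over all genes 7.41% were lower in both, and of the targets 1 was called lower without simvastatin and 0 with it, too few to compare. PPM1D and EDA2R were called without simvastatin, and AEN, CCNG1, XPC and ZMAT3 with it. The difference between the 2 measurements is the interaction given below, and none of these genes passed it.

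For simvastatin, 3 targets were higher both without and with irinotecan, CDKN1A, PMAIP1 and TNFRSF10B, 75% of each set of 4. Over all genes 2.53% were higher in both, 65.2% of the first set and 57% of the second. Of the 4 targets that fell with simvastatin alone none was called lower with irinotecan present. Over all genes 0.571% were lower in both, which was 95 of the 352 that fell with simvastatin alone (27%), so most lower calls did not recur in other genes either. PLK2 was -0.20 without irinotecan and -0.09 with it, XPC -0.27 and -0.12, DDB2 -0.19 and -0.12, and CYFIP2 -0.16 and -0.07. So all 4 stayed negative with irinotecan present, with unadjusted p in the edgeR test of 0.0064, 0.024, 0.015 and 0.15 in that order. The difference without and with irinotecan is the interaction given below, and none of the 4 passed it.

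**Figure D4:**
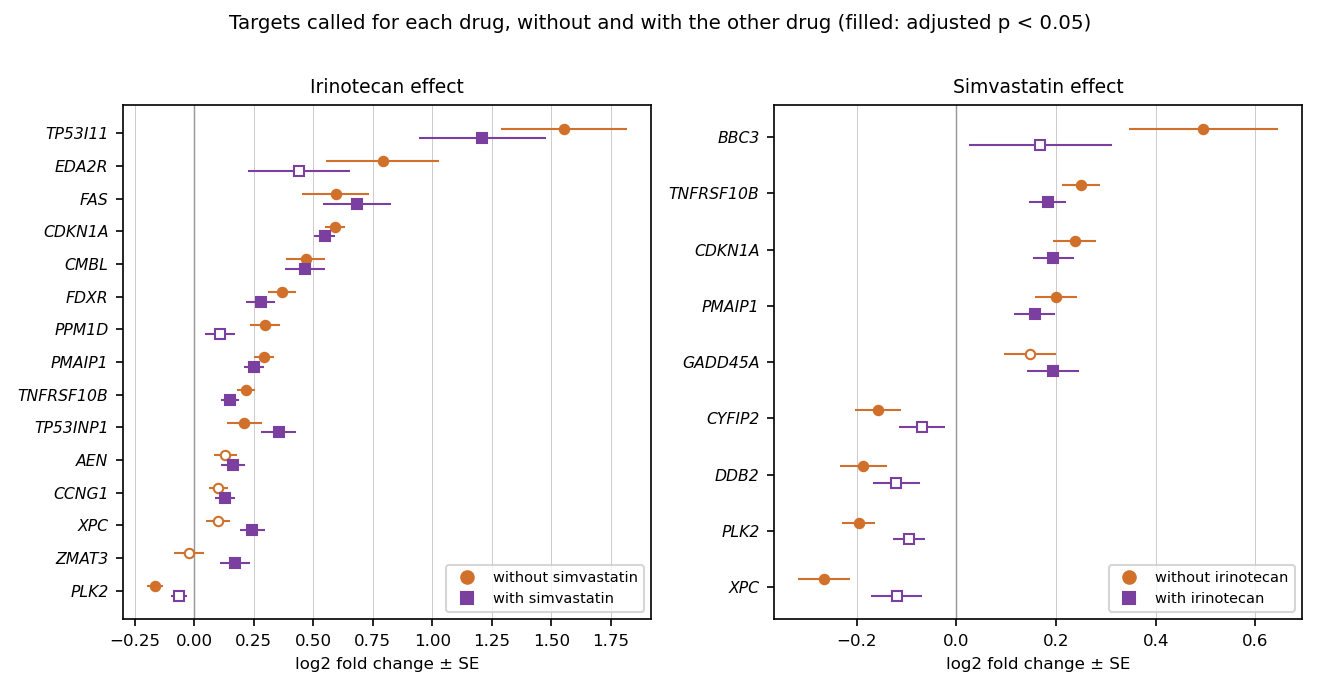
Log2 fold change with its standard error for targets called in either of 2 comparisons per drug, irinotecan at left and simvastatin at right. Circles are the drug against DMSO and squares are the combination against the other drug. Filled markers passed an adjusted p of 0.05. The 8 irinotecan genes filled in both lie to the right of 0 with overlapping or near bars, and CDKN1A, PMAIP1 and TNFRSF10B are the 3 filled in both at right.

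The interaction tested whether the combination departed from the sum of the single-drug changes on the log2 scale. Of the 30 targets 0 were called higher or lower, beside 0% and 0.012% of all genes. At an unadjusted p under 0.05 there were 3 (PLK2, PPM1D and ZMAT3), and DESeq2 called 0 of the targets and 5 of all genes. With the replicate number as a block more of all genes were called (last paragraph). CDKN1A summed to 0.83 from the single drugs and reached 0.79, a departure of -0.04 with a 95% interval of -0.17 to 0.08. PMAIP1 summed to 0.49 and reached 0.45 (-0.16 to 0.08), and TNFRSF10B summed to 0.47 and reached 0.40 (-0.17 to 0.04).

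These 3 genes were the ones called higher in each comparison with DMSO. Their intervals leave out a departure above 0.08 on the log2 scale. For less abundant targets the intervals were wide: TP53I11 departed by -0.34 (-1.13 to 0.44), EDA2R by -0.35 (-1.005 to 0.30) and BBC3 by -0.33 (-0.75 to 0.10). PPM1D departed by -0.19 (-0.37 to -0.01, adjusted p = 0.828), ZMAT3 by 0.19 (0.01 to 0.37, adjusted p = 0.828) and PLK2 by 0.10 (0.01 to 0.20, adjusted p = 0.823).

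Across all comparisons other than the interaction, 19 of the 30 tested targets (63.3%) were called at least once, in either direction, beside 41.1% of all genes tested. The other 11 were BTG2, PLK3, PHLDA3, MDM2, BAX, TRIAP1, TP53I3, POLH, RRM2B, TIGAR and ACER2.

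A further list of 61 p53 targets, of which 60 were tested, showed changes in both directions. With irinotecan 17 rose and 9 fell, with a median of 0.04, with simvastatin 6 rose and 3 fell, and with the combination 18 rose and 9 fell. The share that rose with irinotecan, 28.3%, stands beside 12.4% of all genes, and the share that fell, 15%, lay near the 11.7% of all genes. With simvastatin the shares were 10% and 5%, beside 3.89% and 2.11%, and with the combination 30% and 15%, beside 15.1% and 13%. GDF15, a stress cytokine, rose by 1.45 ± 0.10 with irinotecan, BTG1, an antiproliferative gene, by 0.39 ± 0.05, and SESN2, a brake on mTORC1, by 0.53 ± 0.06, while the potassium channel gene KCNN4 fell by 0.45. Mean levels with DMSO, simvastatin and irinotecan were 9.04, 21.1 and 24.7 CPM for GDF15 and 23.7, 41.6 and 34.2 CPM for SESN2. They were 63.1, 77.0 and 82.6 CPM for BTG1 and 150, 143 and 110 CPM for KCNN4. The means of GDF15, SESN2 and BTG1 were thus higher with simvastatin alone as well. The combination was above irinotecan alone in 7 (11.7%) and below it in 2 (3.33%), beside 4.45% and 1.5% of all genes. It was above simvastatin alone in 17 (28.3%) and below it in 7 (11.7%), beside 13.9% and 11.7% of all genes.

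Of 21 regulators and relatives of p53, 19 were tested, and 4 rose (21.1%, beside 12.4% of all genes) and 2 fell (10.5%, beside 11.7%) with irinotecan. Those with the smallest p were PPP1R13B (0.43), whose product ASPP1 steers p53 to apoptotic targets, the checkpoint kinase gene CHEK2 (0.43), the acetyltransferase gene KAT5 (-0.32) and TP73 (0.22), a p53 relative that binds the same sites. With simvastatin 0 rose and 1 fell, TP73 (-0.20), which is 5.26% beside 2.11% of all genes. With the combination 3 rose and 3 fell (15.8% each way, beside 15.1% and 13% of all genes). MDM4, which holds p53 inactive beside MDM2, was -0.36 with the combination (adjusted p = 5.92e-05).

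The genes known to be repressed through p21 and the DREAM complex were listed beside CDKN1A. Any link between them and CDKN1A in these cells was not tested. Of 14, all tested, 7 rose (50%, beside 12.4% of all genes) and 2 fell (14.3%, beside 11.7%) with irinotecan, in libraries in which CDKN1A rose 1.51-fold. CDK1 rose by 0.37, the mitotic transcription factor gene FOXM1 by 0.21 and CCNB2 by 0.19, while PLK1 fell by 0.28. With simvastatin 0 rose and 4 fell (28.6%, beside 2.11% of all genes), and with the combination 3 rose and 7 fell (21.4% and 50%, beside 15.1% and 13%). Against irinotecan alone the combination was lower in 6 (42.9%, beside 1.5% of all genes) and higher in 0 (beside 4.45%). The lower genes were led by CENPA (-0.22), AURKA (-0.15) and CCNB1 (-0.13).

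**Figure D5:**
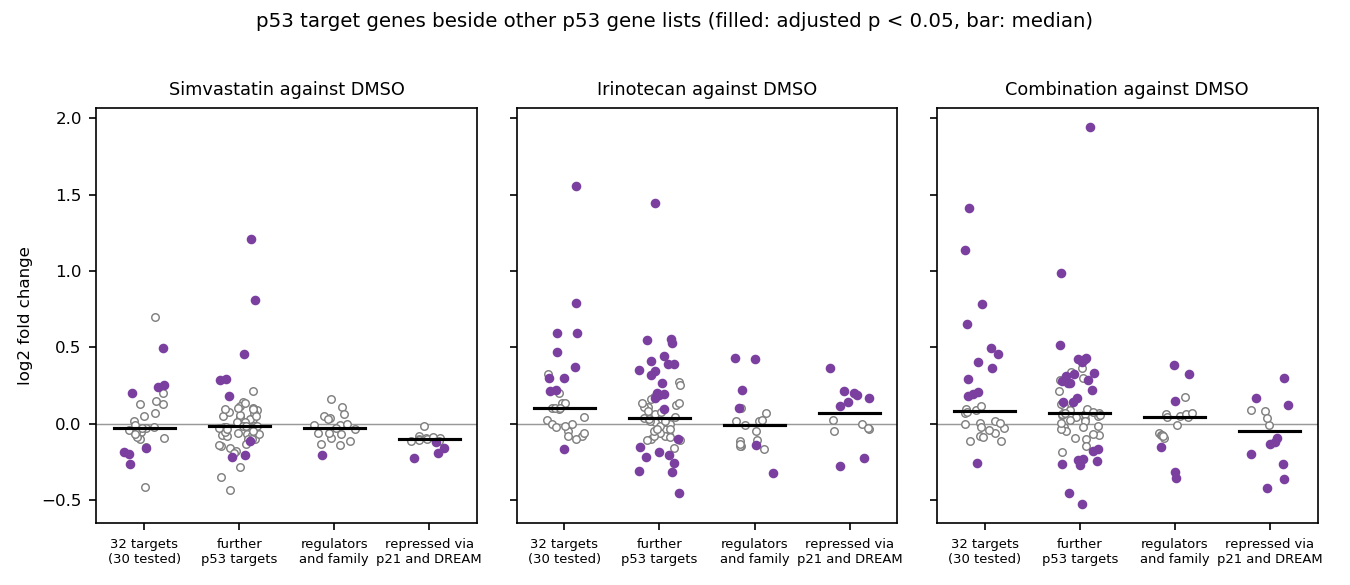
Log2 fold change against DMSO of each tested gene (points) in 4 lists, the 32 targets, 61 further p53 targets, 21 regulators and relatives of p53 and 14 genes repressed through p21 and DREAM, with the median as a bar and filled points for an adjusted p under 0.05. The median of the targets is 0.10 with irinotecan, and that of the genes repressed through p21 and DREAM lies above 0 with irinotecan and below 0 with the combination.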

How the data were processed

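The deposited table holds raw counts per gene for 16 libraries, which the authors had not normalised. Per the submitters' processing notes, FastQC, STAR 2.7.1, DESeq2 and GRCh38 were used. How reads were counted, on which annotation and with which strand setting is not given in the sources used here. Reads from exons that overlap on opposite strands therefore cannot be told apart. The overlaps named here are of whole gene spans, and the levels beside them are of whole genes. Whether exons overlap was not examined. Gene positions and exon lengths came from GENCODE 29.

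Genes were filtered with filterByExpr (minimum count 10, minimum total 15), scaled by TMM factors and fitted by the robust quasi-likelihood method of edgeR 4.0.16 (R 4.3.3) on all 16 libraries, with 1 term per group. The common biological coefficient of variation was 5.25%. Calls used two-sided tests and a Benjamini-Hochberg adjusted p under 0.05 over 16647 genes. Standard errors come from the F statistic. CPM use TMM-scaled library sizes. In each group the library without a number in its title is replicate 4. Same-group libraries were checked for duplicates (chi-squared per degree of freedom 2.47 to 13.9 for each pair), and each library was counted. The fits were also run on simulated independent counts with known changes. Those counts held no replicate structure, so they cannot speak to pairing or to technical replication.

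The targets, the other lists and the tests were chosen with earlier results of these data known. Values in every library are given for CDKN1A, MDM2 and the targets called with irinotecan or the combination at a log2 change of at least 0.3 in either; other genes shown by library were chosen after their values were seen. In the other lists up to 4 genes with the smallest p are named per comparison. TNFRSF10A and TNFRSF10C are named beside them as relatives of TNFRSF10B. Alternatives were DESeq2 1.42.0, other scalings, no filter, stricter thresholds, a replicate block, subsets and leaving out each library. Figures were drawn with matplotlib 3.10.9.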

Additional observations from a re-analysis of the deposited data

Results flagged for a closer look

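Of 120 sets of 4 libraries (30 targets in 4 groups), 3 held a library far from its group, where chance gives about 1 in 20. FAS in DMSO replicate 2 was at 5.96 CPM and the other DMSO libraries at 3.79 to 3.89 CPM. XPC in simvastatin replicate 3 was at 27.3 CPM and the others at 24.8 to 25.0 CPM. DDB2 in irinotecan replicate 4 was at 49.6 CPM and the others at 53.2 to 53.7 CPM. Leaving out any one of these libraries ended no call of FAS, XPC or DDB2.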

How the results depend on the processing

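Of 48 calls of targets, DESeq2 kept all, none reversed, 36 were lost under a minimum 1.2-fold change, 14 at adjusted p 0.01 and 14 on leaving out at least 1 library. A minimum 1.2-fold change left 0 higher and 0 lower targets for simvastatin, 3 and 0 for irinotecan, 6 and 0 for the combination against DMSO, 0 higher against irinotecan and 3 higher against simvastatin. It left 84, 802, 868, 56 and 728 genes of all, 0 in the interaction, and 2 and 0 recurring targets for irinotecan and simvastatin. At adjusted p 0.01 the genes called were 558, 2587, 3032, 529 and 2681 in that order, and 0 in the interaction, with 2 lower targets for simvastatin and 2 higher for the combination against irinotecan. The 12 numbered libraries alone gave 513 genes and 2 lower targets for simvastatin, 2 lower for the combination against irinotecan and 1 gene in the interaction. Library sizes alone gave 17 higher targets for irinotecan and 3 lower for the combination against irinotecan. Lower targets of the combination against DMSO were 2 by DESeq2, median-ratio size factors or the compared groups alone, and 1 to 3 with a library left out (3 without DMSO replicate 4). Lower targets of the combination against irinotecan were 2 by DESeq2 or the compared groups alone, 3 with no filter and 0 to 2 with a library left out. In the interaction DESeq2 called 5 genes, no filter gave 14, and leaving out a library gave 0 to 9 (9 without simvastatin replicate 3). Simvastatin called 664 genes without its replicate 4, and up to 1224 with another library left out.

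The labels give no source for the replicate numbers, and 2 of 18 same-numbered pairs correlated above 0.1, so the numbers were not used as pairs. That cut of 0.1 cannot exclude pairing, and the main results leave out any pairing that the numbers may mark. Same-numbered libraries correlated at -0.08 to 0.16 (median 0.06, 17 of 18 above 0), others at -0.19 to 0.10 (median -0.04, 10 of 36 above 0). Of 12 libraries 9 correlated best with their own number, and 11 had a higher mean correlation with it. These values hint at pairing, from the data only. With the number as a block (12 libraries), the combination against irinotecan had 2016 genes in place of 989. It had 5 lower targets (BTG2, PLK2, BAX, DDB2 and FDXR) in place of 0. The combination against DMSO had 2 lower targets, the interaction 190 genes in place of 2, and 6 targets recurred for simvastatin. TP53I11, EDA2R, BBC3, FAS and ACER2, the targets with the lowest levels tested, had the widest intervals, and depth limits what can be said of them.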
